A study of Homo sapiens with 5 samples.

Results

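The HOX genes were described through the chromatin over their 4 clusters in RD and RH18. Both are established human lines grown from rhabdomyosarcoma, a tumour whose cells resemble muscle precursors that fail to mature. They are of the fusion-negative kind, which lacks the PAX-FOXO1 fusion gene. Chromatin immunoprecipitation and sequencing (ChIP-seq) of histone H3 acetylated at lysine 27 (H3K27ac) was performed in RD and in RH18, and of the muscle transcription factor MYF5 in RH18. Each line was grown in DMEM with serum and fixed with 1% formaldehyde for 12 minutes, and the labels name no drug or genetic change. The antibodies came from Active Motif (H3K27ac) and Santa Cruz (MYF5, C-20), and each of the 3 groups was 1 library. No difference below has a replicate check, and a difference between the lines cannot be told apart from one between their libraries. The labels list 2 further samples, input DNA of each line, which had no peak list here.

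The members were all listed peaks that overlap 4 windows of the genome build hg19. These were HOXA on chromosome 7 (27120001 to 27260000, 140 kb), HOXB on chromosome 17 (46590001 to 46820000, 230 kb), HOXC on chromosome 12 (54310001 to 54460000, 150 kb) and HOXD on chromosome 2 (176930001 to 177070000, 140 kb). They held 255 of the 100703 peaks in the 3 lists: 161 of 43159 RD H3K27ac regions, 78 of 46408 RH18 H3K27ac regions and 16 of 11136 MYF5 peaks. No peak crossed the edge of a window. The choice of windows used no measured value, and 38 HOX genes belong to them.

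HOX genes encode homeodomain transcription factors that give cells their position along the body axis and the limbs. Within a cluster the genes lie in the order in which they are used from head to tail, so that low-numbered genes mark anterior and high-numbered genes posterior levels. Acetylation of lysine 27 marks active promoters and enhancers, whereas methylation of that same residue by Polycomb complexes marks silent HOX genes. MYF5 is a basic helix-loop-helix factor of muscle progenitors that binds DNA motifs called E-boxes.

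From low to high coordinate, the gene order in the RefSeq table (GRCh38.p14) ran from HOXA2 to HOXA13 and from HOXB1 to HOXB13. In the HOXC and HOXD clusters it ran the other way, starting from HOXC13 and from HOXD13. Since that table is of another build than the peak lists, no peak was assigned to a gene, and positions below are given in kb from the start of a window. The clusters also carry microRNAs, small RNAs that pair with messages through their seed. The mature 5p arms of the miR-196 family are shown because copies of 1 seed (bases 2 to 8, in capitals) sit in 3 of the clusters, as RefSeq gives them. MIR196B lies between HOXA9 and HOXA10, MIR196A1 between HOXB9 and HOXB13, and MIR196A2 between HOXC10 and HOXC9; MIR196A1 and MIR196A2 give the same mature sequence.
hsa-miR-196a-5p: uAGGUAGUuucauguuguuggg
hsa-miR-196b-5p: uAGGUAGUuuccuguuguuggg

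Promoter sequences, each spanning the start of a gene, were in the RefSeq table (GRCh38.p14) for 20 of the 38 genes, as 26 distinct sequences. The clusters were unevenly represented: HOXA3 had 7 promoters, and HOXB1 was the only HOXB gene with any. The E-box CAGCTG, a form known to be used by muscle factors and identical on both strands, was in 6 of these 26 (23.1%) and in 17.9% of all 35093 promoters of the table. The E-boxes CACCTG and CAGGTG, which are each other's complement, were in 1 of 26 (3.85%) against 20.6%. The general form CANNTG, which includes all of these, was in 73.1% against 68.7%. The stretches below show the CAGCTG (in capitals) of 3 genes, in the direction of the gene, 107 bases before the start of HOXA6, 193 before that of HOXA7 and 117 before that of HOXC4. HOXA3 and HOXA11 also held a CAGCTG and are not shown. A match describes letters only, and whether a MYF5 peak lies on any of these promoters was not determined.
HOXA6: ccgccgccgcgtCAGCTGgtgcgatttgct
HOXA7: gaggttggccgcCAGCTGggcgctcccgcg
HOXC4: gcagaaaatttaCAGCTGagtaataaaagt

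The lists differed as a whole. The RD list covered 21.2 Mb and the RH18 H3K27ac list 32.5 Mb, the lowest −log10 p-value was 5.00 in RD, 7.09 in RH18 H3K27ac and 9.09 in MYF5, and total reads are not given in the sources used here. Sequenced tags at each summit were recovered from the authors' fold and p-value, with list medians of 85.0 in RD, 57.0 in RH18 H3K27ac and 42.0 in MYF5. Folds, the authors' enrichment over local background, are on different scales in these lists, so they were used within a list only. The match of the lines to muscle marker genes was not checked here, because that needs genes placed on hg19.

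All 4 clusters held acetylated regions in both lines, with the least in HOXD of RH18. The RD regions covered 28.7% of the HOXA window, 16.7% of HOXB, 26.0% of HOXC and 9.11% of HOXD. The RH18 regions covered 11.4%, 13.0%, 20.3% and 1.26%, in the same order. Every window was therefore covered more in RD. Over the genome, taken as the 2939 Mb between the outermost regions of each chromosome, the order was the opposite, with 0.721% covered in RD and 1.11% in RH18.

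**Figure D1:**
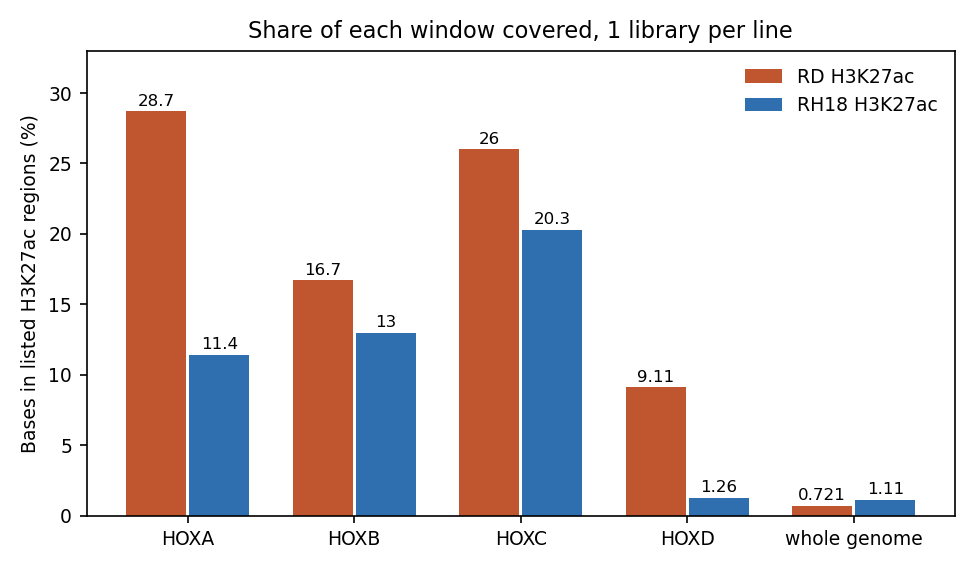
Bars give the share of bases in listed H3K27ac regions (y axis, percent) in each HOX window and over the whole genome, for the 1 RD and the 1 RH18 library. RD bars are the higher in all 4 windows, from 9.11 to 28.7%, and the lower over the genome (0.721 against 1.11%).

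Expressed as a ratio, RD covered 1.67 times the bases of RH18 over the 4 windows (130248 against 78116 bp), whereas the ratio of the whole lists was 0.651. The ratio was 7.22 in HOXD, 2.51 in HOXA, 1.29 in HOXB and 1.28 in HOXC. HOXA and HOXD thus held most of the difference, while HOXB and HOXC were covered to a similar extent. A setting chosen after the data were seen, which leaves out regions whose local background is at least 4 times the lowest of its list, turned the direction in all but HOXD. The ratio was then 0.788 over the 4 windows, 0.956 in HOXA, 0.777 in HOXB, 0.622 in HOXC and 2.36 in HOXD, beside 0.467 for the whole lists. That setting removed 70 of the 161 RD regions (43.5%, whole list 31.9%) and 1 of the 78 RH18 regions (1.28%, whole list 10.1%).

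**Figure D2:**
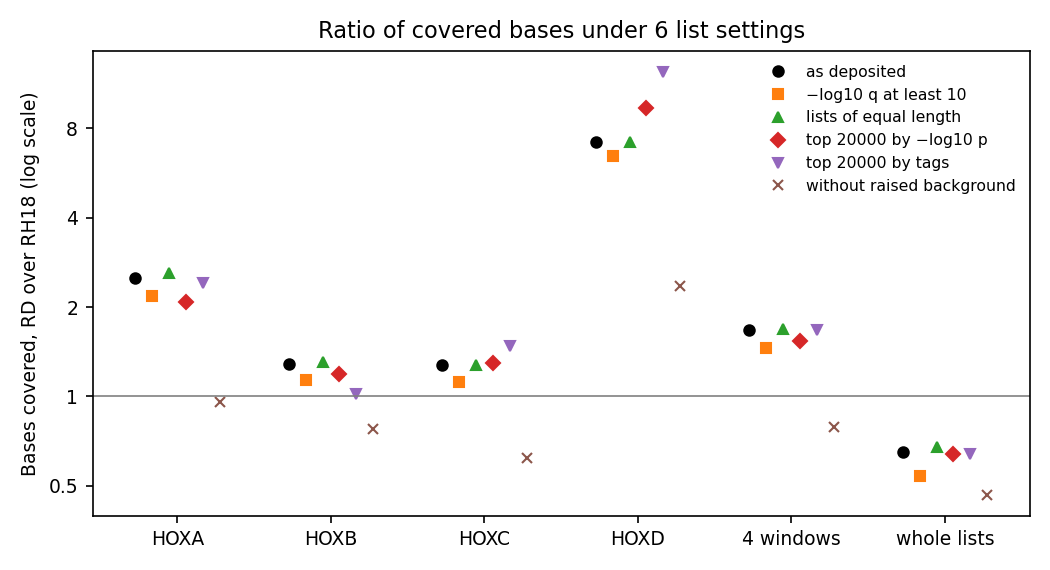
Points give the ratio of bases covered in RD to those in RH18 (y axis, log scale) for each window, the 4 windows together and the whole lists, with 1 symbol for each of 6 settings of the lists. The HOXD points lie between 2.36 and 12.4 and those of the whole lists between 0.467 and 0.673, and only the setting without raised background takes HOXA, HOXB and HOXC below 1.

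Local background was itself uneven. In RD its median at the listed regions, over the lowest of the list, was 4.94 in HOXA, 2.16 in HOXB, 3.33 in HOXC and 5.2 in HOXD, against 2.34 for the whole list. In RD regions within 5 Mb of a window it was 1.57 around HOXA and 2.6 around HOXD. The RD background was thus higher in the HOXA and HOXD windows than beside them. In RH18 the medians were 1.9, 1.52, 1.0 and 1.42, against 1.52 for the list. Each value is a multiple of its own list's lowest background, so the multiples of RD and RH18 are on different scales. The part of background in the difference of coverage was not tested.

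In the lists as deposited, sharing between the lines was lopsided. Of the 161 RD regions, 69 (42.9%, exact 95% interval 35.1 to 50.9%) overlapped an RH18 region by at least 1 bp, where the whole RD list gave 60.0%. In the other direction, 61 of 78 RH18 regions (78.2%, 67.4 to 86.8%) met RD acetylation, where the whole RH18 list gave 45.1%. With at least 1 bp of overlap, most RH18 regions over HOX thus had an RD counterpart, while 92 of the 161 RD regions had none in RH18. The RH18 share was 46.2% where 50% of both regions had to overlap (whole list 25.6%), and 42.9% without regions of raised background (whole list 29.8%). Under the same settings the RD share was 22.4% (whole list 27.5%) and 39.6% (whole list 46.1%). Intervals cover counting error only. By bases, 39.9% of the HOX sequence covered in either line was covered in both, 47.6% in RD alone and 12.6% in RH18 alone, against 30.7%, 20.8% and 48.5% over the genome.

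Shared regions had more tags than unshared ones at the median, with overlapping ranges. In the windows, shared RD regions rested on a median of 128 tags (36 to 269) and unshared ones on 84.5 (29 to 228), against medians of 109 and 59 in the whole list. In RH18 the values were 110 tags (19 to 327) for shared and 34 (27 to 87) for unshared regions, against medians of 95 and 42 in the whole list. Among the 17 RH18 regions without an RD counterpart, 16 lay below the list median of 57.0 tags. In the whole RH18 list 17224 of 25501 such regions did. Among the 92 RD regions without an RH18 counterpart, 46 lay below the RD median of 85.0, against 12934 of 17275 in the whole RD list. Of these 92, 15 (16.3%) lay within 500 bp of an RH18 region, near the 16.6% of the whole list.

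**Figure D3:**
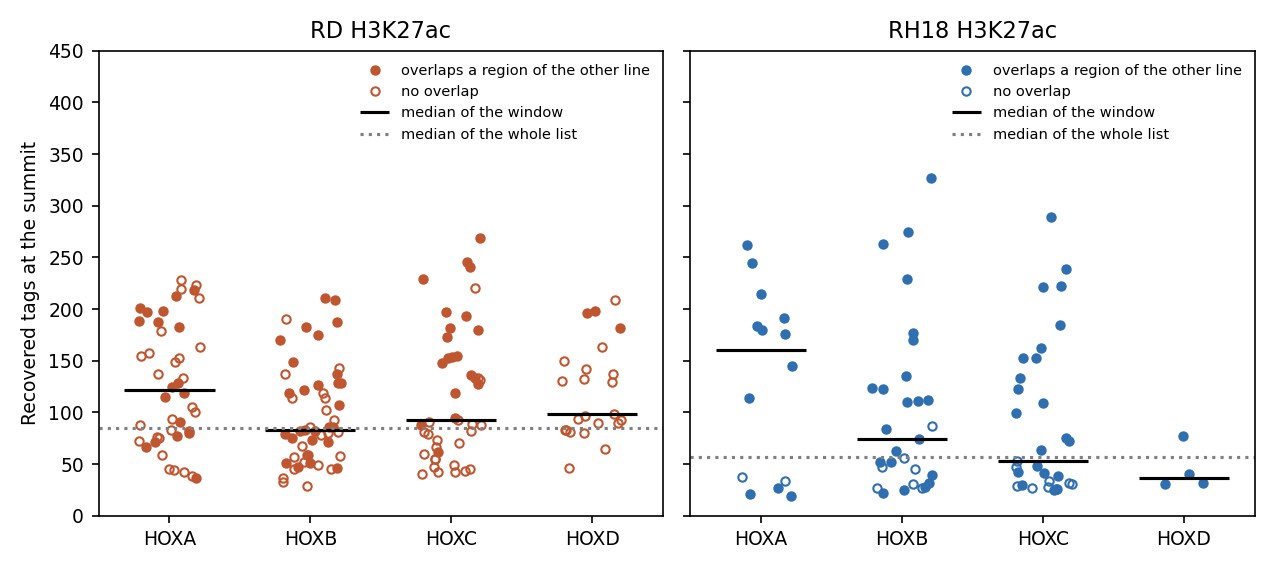
Each point is 1 H3K27ac region, placed by its window (x axis) and the recovered tags at its summit (y axis), with filled points for regions that overlap one of the other line, black lines for window medians and dotted lines for list medians. Open RD points reach 228 tags in HOXA, whereas open RH18 points stay at or below 87 tags in every window.

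HOXA showed a change of pattern along the cluster. In RD, 44 regions covered 40.2 kb, and in RH18, 14 regions covered 16.0 kb. The ratio of RD to RH18 was 2.18 from 0 to 70 kb of the window and 2.68 from 70 to 140 kb. In HOXD it differed more between these parts, at 13.2 and 3.84. From 80 to 110 kb of the window, toward the HOXA13 end, RD regions covered 77.9% of the bases and RH18 regions 15.1%, a ratio of 5.18. From 0 to 80 kb, on the side of HOXA2, the shares were 18.7% and 13.5%, a ratio of 1.38. The excess of RD coverage was therefore largest in a stretch of 30 kb, which was singled out after its values were seen. Without regions of raised background the ratio was 2.2 in that stretch and turned to 0.416 from 0 to 80 kb. Which genes lie in the stretch of 30 kb was not determined. HOXA13, the last gene at the upper end of the cluster, is known for its role in digits and the urogenital tract. HOXA2, at the other end, is known for its role in the hindbrain and the second branchial arch.

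Within the 30 kb stretch, RD had 17 regions with 45 to 228 tags (median 183), and 6 of them overlapped an RH18 region. The RD region with most tags in the whole window, chr7:27207502-27208705 (fold 18.5, 228 tags), had none within 3328 bp. The RD regions chr7:27209252-27210100 (219 tags) and chr7:27224987-27226457 (223 tags) of the stretch also lacked an overlap. All 4 RH18 regions of the stretch overlapped RD regions. They were few but not all weak: chr7:27212034-27214345 rested on 245 tags and chr7:27218977-27219913 on 145, whereas chr7:27223604-27223870, of 267 bp, rested on 21.

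RH18 had few HOXA regions, but they were wide and rich in tags for that list. Their median width was 975.5 bp, against 474 bp for the RH18 list, and that of the RD regions was 655.5 bp against 358 bp. The 14 RH18 regions rested on a median of 160.5 tags, against 57.0 for the RH18 list, and the RD regions on a median of 122 against 85.0. The highest RH18 fold of the window was 73.0, at chr7:27170549-27171180 (262 tags), where RD had a region of 407 bp (188 tags). The next were 52.5 at chr7:27218977-27219913 and 51.6 at chr7:27135085-27137001. Each of these 3 regions held a MYF5 summit. Between 51.2 and 69.9 kb of the window RH18 had no listed region over 18.7 kb, where RD had 8 regions covering 4.95 kb. The only RH18 regions without an RD overlap, chr7:27238681-27239023 and chr7:27240012-27240326, lay beyond the last RD region and had folds of 4.54 and 5.86.

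**Figure D4:**
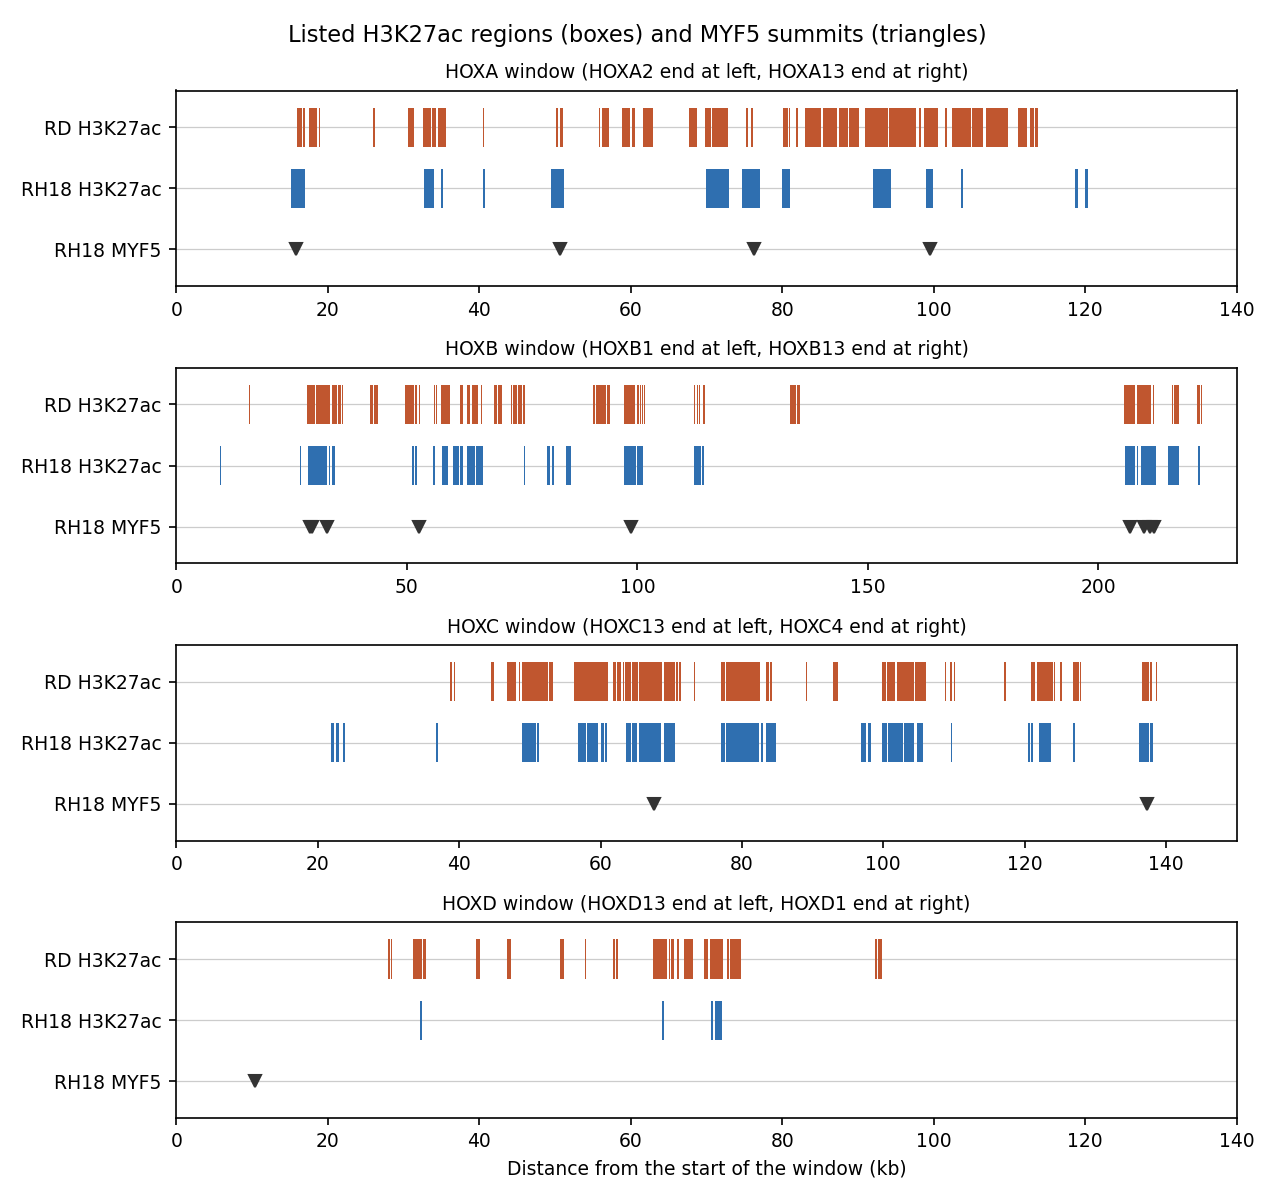
Boxes mark listed H3K27ac regions of RD and RH18 and triangles mark MYF5 summits of RH18, by distance from the start of each window (x axis, kb), with the HOX genes at either end named in the panel titles. In the lists as deposited, RD regions fill most of HOXA from 80 to 110 kb, and HOXD has 23 RD regions against 4 in RH18. HOXB has an empty stretch of 70.3 kb in both lines. Without regions of raised background HOXD has 8 RD regions against 4 in RH18.

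As listed, HOXD was acetylated in RD and nearly bare in RH18. RD had 23 regions covering 12.7 kb and RH18 4 regions covering 1.77 kb. All 4 RH18 regions overlapped RD regions, and 3 of the 23 RD regions (13.0%, 2.78 to 33.6%) overlapped an RH18 region. The RH18 regions rested on 31, 32, 40 and 77 tags, so that 3 lay below the list median of 57.0 and 1 above it. The RD regions had 46 to 209 tags with a median of 98.0. An RH18 region just under its list's threshold would not be seen here. Background was raised at 15 of the 23 RD regions (65.2%, whole RD list 31.9%). It was raised at none of the 4 RH18 regions, where the whole RH18 list gave 10.1%. With such regions left out, 8 RD regions covered 4164 bp, against 4 RH18 regions and 1767 bp.

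The acetylated part of HOXD lay in the middle of the window. From 60 to 80 kb, RD covered 38.7% of the bases with 11 regions and RH18 7.03% with 3, a ratio of 5.51 that was 2.55 without raised background. The RD region of highest fold, chr2:177003130-177004534 (fold 29.0, 209 tags), had its nearest RH18 region 1151 bp away, and the next, chr2:176997050-176997882 (fold 18.7, 163 tags), 2692 bp away. Even the RH18 region with most tags, chr2:177001106-177001978 (fold 25.6, 77 tags), lay between these, inside an RD region of 182 tags. Neither line had a listed region in the first 28.0 kb, at the side of HOXD13, a regulator of digit formation. The same held for the last 46.8 kb, at the side of HOXD1, an anterior member of the cluster. Whether these stretches reach either gene was not determined.

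By shared bases HOXC was the cluster most alike in the lines, whereas by shared regions it was not. The share of RD regions with a counterpart was 54.9% in HOXB and 46.5% in HOXC, and that of RH18 regions was 74.2% in HOXC, the lowest of the 4 clusters. RD had 43 regions covering 38.9 kb and RH18 31 regions covering 30.5 kb, and 58.6% of the bases covered in either line were covered in both, against 23.2% in HOXA, 46.0% in HOXB and 13.1% in HOXD. Across the 12 bins of 10 kb with a region, covered bases of the lines had a Spearman rho of 0.86. The value was 0.32 in HOXA (12 bins), 0.58 in HOXB (16 bins) and 0.79 in HOXD (7 bins), and 0.25 over 34965 such bins of the genome. Bins of 1 cluster share their libraries and lie side by side, so these values describe and do not test.

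Coverage of HOXC was highest between 40 and 110 kb, with 46.0% in RD and 35.1% in RH18, a ratio of 1.31 that turned to 0.577 without raised background. The strongest RH18 regions were chr12:54375417-54378485 (fold 86.2, 239 tags), chr12:54410705-54412843 (fold 80.8, 289 tags) and chr12:54446225-54447607 (fold 67.1, 222 tags). Each overlapped an RD region, and the first matched chr12:54375388-54378638 (fold 20.1, 229 tags) nearly base for base. The RH18 region of fold 67.1 lay outside that stretch, from 136 to 138 kb. The widest region of each line lay between 40 and 110 kb, with 4785 bp in RD and 4631 bp in RH18. A difference appeared at chr12:54356772-54358030, the RD region of highest fold in the window (26.2, 220 tags), which had no RH18 region within 928 bp. Toward the HOXC13 end RD had no region over 38.7 kb, where RH18 had 4 that covered 1344 bp, with 28 to 34 tags each. HOXC13 is known for its role in hair and nail.

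HOXB was acetylated in 2 blocks. The first 140 kb, from the HOXB1 side, held 43 RD and 24 RH18 regions, and the last 30 kb, at the HOXB13 end, held 8 and 5. Between 135 and 206 kb neither line had a listed region over 70.3 kb; HOXB13, a factor of the prostate and hindgut, is known to stand apart from the rest of its cluster. In the upper block RH18 covered slightly more than RD (8.61 against 7.95 kb), and in the lower block less (21.3 against 30.4 kb), which turned without raised background (21257 against 17823 bp). All 5 RH18 regions of the upper block overlapped RD regions, as did 7 of the 8 RD regions.

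In RH18 the regions of highest fold in HOXB were chr17:46799234-46802546 (fold 92.8, 263 tags) and chr17:46795806-46797862 (fold 67.0, 275 tags) in the upper block, and chr17:46618547-46622700 (fold 91.0, 327 tags) at the start of the lower one. RD had regions at the same places, chr17:46798872-46801465 (fold 28.2, 211 tags) and chr17:46618399-46620097 (fold 15.2, 209 tags). Regions of 1 line alone were seen inside the lower block. The RD region of highest fold, chr17:46662921-46663949 (30.8, 190 tags), lay 1355 bp from the nearest RH18 region, and chr17:46681004-46683135 (fold 22.3, 143 tags) lay 4019 bp from one. Between 80 and 90 kb the reverse held, with no RD region and 2053 bp covered in RH18. The highest fold of an RH18 region without RD overlap in the cluster was 20.5, at chr17:46670453-46670984 (56 tags).

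**Figure D5:**
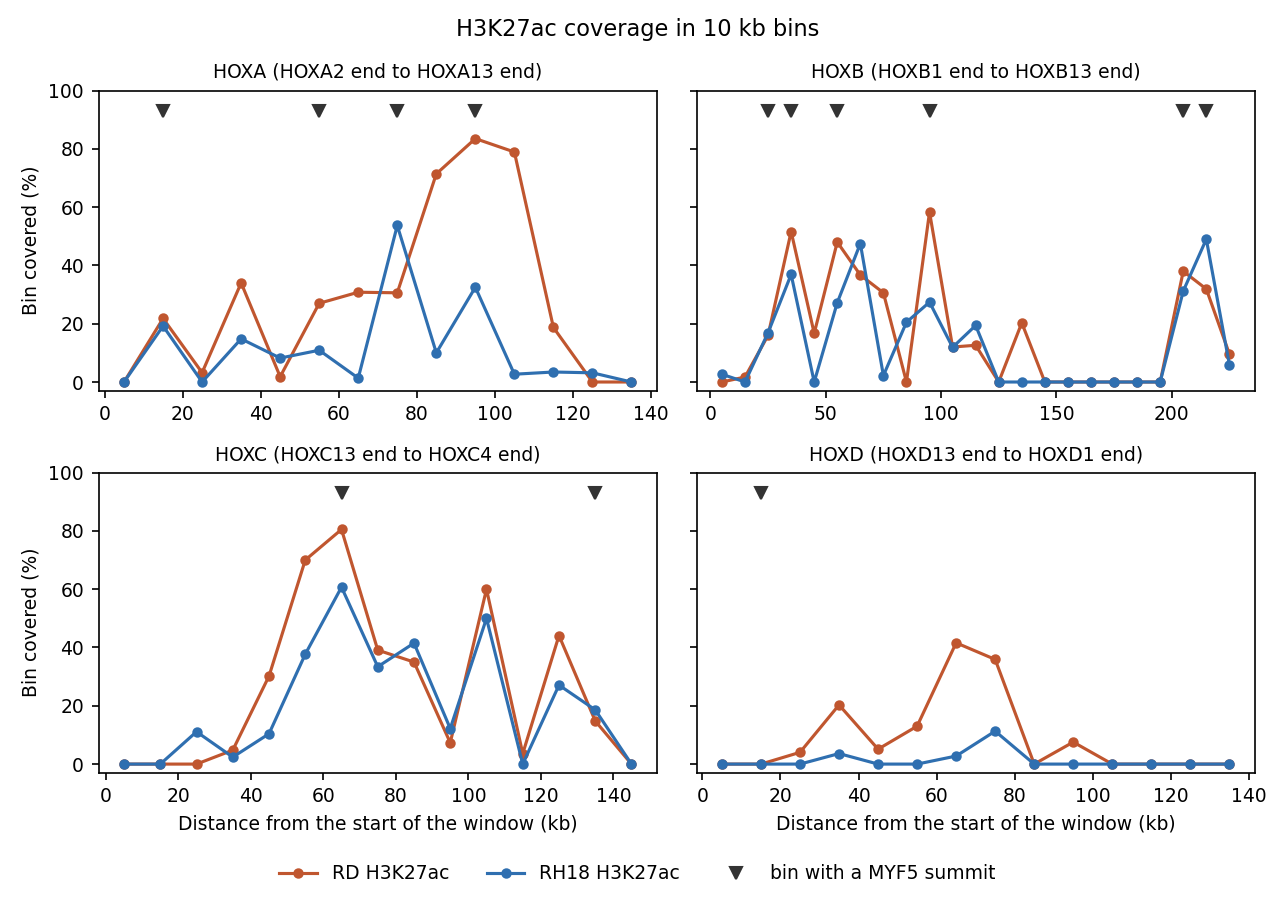
Lines give the share of each 10 kb bin covered by H3K27ac regions (y axis, percent) along the windows (x axis, kb from the window start) in RD and RH18, and triangles mark bins with a MYF5 summit. The lines run close together in HOXC and part in HOXA, where RD reaches 83.5% and RH18 32.5% in the bin from 90 to 100 kb.

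Bin by bin, RD covered more bases in 34 of the 47 bins that held a region (72.3%), against 33.5% of such bins genome-wide. No RH18 region fell in 9 of the 47 (genome-wide 19.3%), and no RD region in 4 (genome-wide 33.3%). In 23 of them (48.9%, genome-wide 23.7%) it covered at least 2 times the RH18 bases, and in 5 (10.6%, genome-wide 45.9%) RH18 covered at least 2 times those of RD. As listed, RD covered more in 9 of 12 bins of HOXA, 10 of 16 of HOXB, 8 of 12 of HOXC and 7 of 7 of HOXD. Without regions of raised background RD covered more in 19 of 43 bins (44.2%), against 30.3% genome-wide.

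MYF5 peaks in the clusters sat mostly on acetylated sequence. The windows held 16 peaks, or 2.42 per 100 kb against 0.379 over the genome, 9 of them in HOXB, 4 in HOXA, 2 in HOXC and 1 in HOXD. RH18 H3K27ac regions likewise covered more of the windows (11.8%) than of the genome (1.11%). RH18 acetylation held 14 of the 16 summits (87.5%, 61.7 to 98.4%), where the whole list gave 55.2%. Inside an RD region lay 13 (81.2%, 54.4 to 96.0%; whole list 39.9%) and inside regions of both lines 12 (75.0%, 47.6 to 92.7%; whole list 33.5%). The 14 summits lay in 10 RH18 regions, so the intervals, which treat summits as independent, may be too narrow. All 10 RH18 regions of the windows that held a MYF5 summit overlapped an RD region, as did 80.2% of such regions in the whole list. Such regions were 12.8% of the RH18 regions in the windows, near the 12.0% of the whole list. In RD, 11 of the 161 regions (6.83%, 3.46 to 11.9%) held a summit of the RH18 MYF5 list, against 9.71% of the whole RD list. MYF5 itself was profiled in RH18 alone among the libraries used.

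The MYF5 peaks were of modest height. Fold was below the list median of 11.2 in 12 of the 16, and tags ran from 21 to 61 with a median of 32.5, against 42.0 in the list. The highest was chr17:46799663-46800405 (fold 18.8, 61 tags, rank 1589 of 11136 by fold), at the HOXB13 end. It shared its RH18 region of fold 92.8 with 2 other summits, at 46801234 (32 tags) and 46801991 (26 tags), and a further one at 46796793 (30 tags) lay in the neighbouring region. In all, 4 of the 9 HOXB peaks fell in the upper block. The start of the lower block held 3 summits within 1 RH18 region of fold 91.0, at 46619056 (34 tags), 46619352 (31 tags) and 46622621 (27 tags), and 1 summit lay at 46688542 (35 tags).

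HOXA carried 4 MYF5 summits, each in a different RH18 region. They lay at 27135845 (46 tags), 27170709 (46 tags), 27196313 (28 tags) and 27219447 (33 tags), from near the HOXA2 end to the stretch rich in RD acetylation. The summit at 27135845 fell 48 bp outside an RD region and that at 27196313 fell 204 bp outside one. In HOXC the summits lay at 54377518 (21 tags) and 54447279 (31 tags), inside RH18 regions of fold 86.2 and 67.1, which are among the 3 strongest of that window. A MYF5 summit thus lay in each of the 3 RH18 regions of highest fold in HOXA and in HOXB, in 2 of those 3 in HOXC and in no RH18 region of HOXD. Over the whole list, 53.7% of the 2903 RH18 regions with a fold of at least 51.6, the lowest of those 9, held a summit. That share is on another cut than the 3 highest of a window. Outside those 9, further RH18 regions of the windows reached that fold and held no summit. They were chr17:46805169-46807520 (fold 61.4) in HOXB and, in HOXC, chr12:54368086-54369669 (55.3), chr12:54378933-54380515 (58.4), chr12:54387733-54392363 (51.7) and chr12:54412959-54414285 (61.6).

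The other 2 peaks lay off RH18 acetylation. The HOXB peak chr17:46642580-46642801 (fold 12.2, 36 tags) had its summit 425 bp from an RH18 region and inside a weak RD region (29 tags). The only HOXD peak, chr2:176940254-176940473 (fold 11.9, 35 tags), lay near the HOXD13 end, 21762 bp from the nearest RH18 region and 17610 bp from the nearest RD region. By fold these stood above the list median of 11.2, unlike 12 of the 16. Whether they are specific to the MYF5 antibody was not tested.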

How the data were processed

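H3K27ac was mapped in RD and RH18 and MYF5 in RH18, with 1 library and 1 peak list each. The submitters' processing notes name BWA 0.7.10, MACS2 2.1.0 and hg19; control and threshold are not given in the sources used here. Of the lists, the authors' deposited values are the fold (a ratio over local background), the p-value and q-value as −log10, the summit, other positions, and a score left unused. Peak numbers skip 49 entries (RD H3K27ac), 70 entries (RH18 H3K27ac) and 39 entries (MYF5), for a reason not given.

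Tags and background were recovered from fold and p-value with the formulas of MACS2. A tag counted for 0.2727 (RD), 0.8322 (RH18 H3K27ac) and 0.6577 (MYF5) pileup units. Tags came out whole, within 0.1, for 100.0% of peaks to 2 decimals, where chance gives 20% for peaks with 1 solution. In the same order 45.4%, 7.6% and 18.6% of peaks had several solutions, of which the one nearest a whole tag was taken. Run on peaks simulated with those formulas, the step returned 100.0% of tags in each list, which checks the code only.

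The windows were given, and members and lists were chosen with earlier results of these data known. Regions were shared when they overlapped by at least 1 bp, and MYF5 peaks were placed by summit. Intervals are exact (Clopper-Pearson, 95%). The rule for named regions took, per cluster and line, the 3 of highest fold, the 3 highest without counterpart, the widest, the longest empty stretches, and every MYF5 peak; regions named by their tags or position were added after their values were seen. Gene starts, HOX cofactors and muscle markers were not placed, since the RefSeq tables are of GRCh38.p14. Scripts used Python 3.11.15 with scipy 1.17.1, pandas 2.3.3, numpy 2.4.6 and matplotlib 3.10.9.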

Additional observations from a re-analysis of the deposited data

How the results depend on the processing

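Of 58 alternatives run on the main values, 47 stayed within the interval or within 1.5 times, 7 moved and 4 turned direction. Without regions of raised background, a setting added after seeing the data, the ratio of covered bases, RD over RH18, was 0.788 over the 4 windows, 0.956 in HOXA, 0.777 in HOXB, 0.622 in HOXC and 2.36 in HOXD. The RH18 share with an RD counterpart was then 42.9%, and RD covered more in 44.2% of bins. The setting, the same multiple in both lists, took 13773 of 43159 RD and 4678 of 46408 RH18 regions, and the cause was not tested. The lowest background was 0.638 pileup units in RD and 1.319 in RH18 H3K27ac. The same multiple was therefore a lower cut in pileup units in RD, and the setting does not treat the lists alike. Among the 20000 regions with most tags, also added later, the HOXD ratio was 12.4, with 1 RH18 region left. An overlap of 50% of both regions gave shared shares of 22.4% in RD and 46.2% in RH18, and joining within 1000 bp gave 53.8% in RD; the cause was not tested. With a −log10 q of at least 10, lists of equal length, windows narrowed by 10 kb or widened by 20 kb, and the 20000 regions of highest −log10 p, every window kept more coverage in RD, with ratios of 1.46 to 1.7 over the 4 windows; HOXB came nearest to 1, at 1.02 with the most tags. Alternatives on gene starts were not run, since no annotation of hg19 was used here. No paired analysis was possible because each group is 1 library. Lists ended at different p-values and depth is unknown, which limits what a missing region shows.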

Other observations

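Regions within 12.5 kb of each other were joined into domains and ranked within each list by the sum of fold times width. In RD the HOXC cluster formed 1 domain of 43 regions (chr12:54348709-54448774), rank 5 of 16671, and the HOXA cluster 1 domain of 44 regions (chr7:27135893-27233704), rank 6. By covered bases these were the largest (HOXA, 40.2 kb) and the second largest (HOXC, 38.9 kb, rank 2) of all RD domains. In RH18 the HOXC domain (chr12:54346714-54448169, 28 regions) had rank 26 of 18842, and HOXA fell into 4 domains, the highest at rank 385 (chr7:27189868-27223870). The HOXB13 end was a domain of rank 149 in RD (chr17:46795635-46812495) and of rank 160 in RH18 (chr17:46795806-46812096), with 4 MYF5 summits in each. HOXD had rank 144 in RD (chr2:176957959-177004534, 21 regions) and its highest domain in RH18 had rank 7583 (chr2:176994082-177001978, 3 regions). Ranks hold within a list and were not compared between lines. They are of the lists as deposited and were not computed without regions of raised background. Under that setting RD regions covered 14956 bp of the HOXA window and 18962 bp of the HOXC window.

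The surroundings of the windows differed between clusters. Beyond the HOXA window the nearest H3K27ac regions lay 223 kb below and 442 kb above in RD, and 215 and 420 kb in RH18. Around HOXD they lay 63.1 and 64.2 kb away in RD and 62.5 and 64.0 kb away in RH18. HOXB had neighbours within 20 kb on both sides in either line. On the upper side of HOXC the nearest region lay 13.0 kb away in RD and 59.8 kb away in RH18.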
